A study of Glycine max with 13 samples.

Results

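The binding events of the maize auxin response factors ARF16 and ARF34 on soybean DNA were compared, 52679 events of 177320 in the series. All 16964 ARF16 events and all 35715 ARF34 events were used. They were split by position alone: an event was shared when an event of the other list lay within 100 bp, and otherwise belonged to ARF16 only or ARF34 only. The series holds 13 samples, 12 maize ARFs and the negative control GST-HALO, a tag without an ARF that was not analysed here. Each ARF had 1 library, made by DNA affinity purification sequencing (DAP-seq) on genomic DNA from leaf tissue of Glycine max, in which a transcription factor is incubated with naked genomic DNA and the recovered fragments are sequenced. ARF16 and ARF34 thus differ in the protein used and in the library, and with no replicate the protein and the library cannot be told apart. No test between the proteins was possible.

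ARFs are the transcription factors of the auxin pathway. They bind auxin response elements, short sites with the core TGTC, through a plant-specific DNA-binding domain, often as dimers on repeated sites. In the published maize phylogeny, taken as background and not checked here, ARF16 and ARF34 belong to clade A with ARF4, ARF18, ARF27 and ARF29, a group generally described as activators. ARF7, ARF10, ARF14, ARF25, ARF36 and ARF39 belong to clade B, generally described as repressors. DAP-seq uses DNA without chromatin, so events report sites that a protein can bind in vitro, not occupancy in a soybean cell. Because the proteins are from maize, the soybean DNA served as a sequence library foreign to them.

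Nearly every place with an ARF16 event also carried an ARF34 event, while most ARF34 events had no ARF16 event beside them. Only 1267 ARF16 events (7.47%, Wilson 95% interval 7.08% to 7.87%) were ARF16 only, against 15697 shared (92.5%). ARF34 only held 19798 events (55.4%, 54.9% to 55.9%), against 15917 shared (44.6%). These intervals cover counting error only, and no read depths are given, so an event missing from a list may lie under that list's threshold. The 2 shared counts differ mainly because 1020 ARF16 events had 2 ARF34 events within 100 bp, while 794 ARF34 events had 2 ARF16 events. Mutual nearest events gave 15230 pairs. With both lists cut to the strongest 16964 events, 70.1% of the ARF16 events and 68.7% of the ARF34 events were shared. Since sharing is close to one event with one event, these shares are nearly equal by construction, and they describe only how far the strongest events of the lists met.

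Events without a partner were mostly weak in their own list. Strength, the authors' value for an event, has no stated common scale, so it is given here as a percentile within its list, where 100 is the strongest event. ARF16 only events had a median percentile of 22.9 (quartiles 9.04 and 41.5), against 52.7 (27.5 and 76.8) for shared ARF16 events. ARF34 only events had a median of 34.0 (15.9 and 54.1), against 72.7 (50.5 and 87.8) for shared ARF34 events. The classes overlapped widely, and the lower quartile of the shared ARF34 events lay just under the upper quartile of the ARF34 only events. Of the ARF16 only events, 44.8% had a deposited −log10 q under 6, close to the lowest value in the list (5.01), against 15.1% of the shared ARF16 events. For ARF34 this was 34.2% of the ARF34 only events and 5.51% of the shared ones, in a list whose lowest value was 5.

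The share with a partner rose with strength in both lists, along different courses. It was 79.0% in decile 1 of the ARF16 list, which holds its weakest events, 95.6% in decile 6 and 99.2% in decile 10. In the ARF34 list it was 9.91% in decile 1, 40.9% in decile 6 and 93.1% in decile 10. Of the strongest 1000 ARF16 events 99.3% lay at an ARF34 event of any strength, and of the strongest 1000 ARF34 events 98.2% lay at an ARF16 event. At the limit of the rule, 65 ARF16 events lay 91 to 100 bp from the nearest ARF34 event (median percentile 27.5) and 57 lay over 100 and up to 110 bp from it (24.6). For ARF34 the corresponding numbers were 86 events (35.3) and 89 events (52.4).

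**Figure D1:**
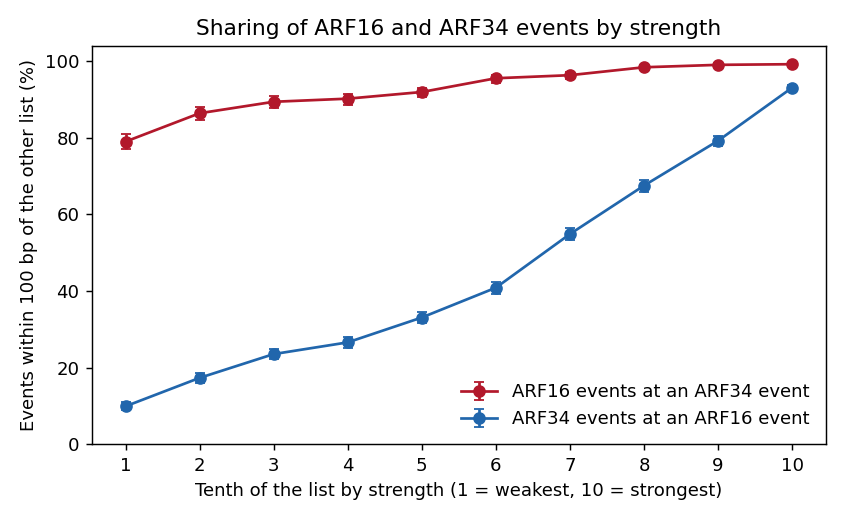
Percentage of events within 100 bp of an event of the other list, by decile of the list ordered by strength, for ARF16 (red) and ARF34 (blue); error bars are Wilson 95% intervals. ARF16 runs between 79.0% and 99.2%, and ARF34 climbs between 9.91% and 93.1%, so the lists come close only in decile 10.

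Where both proteins had an event, the order of strengths was similar. Across the 15230 pairs the Spearman correlation of strength was 0.73, a description across events that share their libraries and are not independent replicates. Among the 66 pairs of lists in the series this was the highest, ahead of ARF14 with ARF36 (0.72, 8497 pairs of events) and ARF10 with ARF25 (0.66, 9445 pairs). Of the 1526 pairs in the top decile by ARF16 strength, 1008 (66.1%) were also in the top decile by ARF34 strength. Percentiles in whole lists were lower for ARF16, with a median difference, ARF16 minus ARF34, of -12.4 points (quartiles -28.4 and -1.75). ARF16 had the higher percentile in 19.5% of the pairs. These percentiles come from lists of different length, so the difference is not one of binding strength.

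The strongest pairs stood at the head of both lists. On chromosome 11, the ARF16 event at position 16083994 was the strongest of its list (strength 2879.9) and the ARF34 event at 16084006 was number 2 of its list (5138.4); 9 of the other 10 ARFs had an event there, all but ARF29. On chromosome 15, the events at 28347819 (ARF16, number 3) and 28347811 (ARF34, number 5) were accompanied by ARF25 and ARF29 alone. On chromosome 5, the events at 36748736 (ARF16, number 2) and 36748735 (ARF34, number 8) lay at events of all 10 other ARFs. These places thus ranged between 2 and 10 other proteins. Positions are 1-based, in a build that no source used here names, and genes near the events were not analysed here.

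The least matched pairs had larger percentile gaps where ARF34 ranked higher. Paired events sat higher in the longer ARF34 list, at a median percentile of 73.4 against 52.8 in the ARF16 list. The larger gaps on that side therefore do not compare the binding of the proteins. The largest gap was on chromosome 15, where the ARF16 event at 17828157 was at percentile 0.68 (strength 18.5) and the ARF34 event at 17828186 at percentile 99.0 (204). On chromosome 17, the ARF16 event at 2506179 was at percentile 2.69 and the ARF34 event at 2506184 at 97.5. On chromosome 6, at 25783703 (ARF16) and 25783782 (ARF34), the percentiles were 0.99 and 94.7. In the opposite direction the gaps were smaller. On chromosome 11 the ARF16 event at 13885243 was at percentile 89.2 (strength 97) and the ARF34 event at 13885202 at 17.7 (23.3). Pairs on chromosome 10 (14563421 for ARF16, 14563368 for ARF34) and chromosome 13 (31390310 for ARF16, 31390306 for ARF34) had percentiles of 92.4 against 21.8 and 73.4 against 4.37. Each of these 6 pairs had 2 to 8 other ARFs within 100 bp of the ARF16 event.

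The positions that the caller gave to paired events were often separated by a fixed step. The median distance was 6 bp (quartiles 1 and 22), but 5833 of the 15230 pairs (38.3%) lay exactly 1 bp apart, while 119 (0.78%) lay on the same base and 335 (2.20%) were 2 bp apart. The step had no common direction. ARF16 lay 1 bp above ARF34 in 2793 pairs and 1 bp below it in 3040, and the mean signed offset over all pairs was -0.0046 bp. Smaller excesses stood at 3 bp (469 pairs), 5 bp (408 pairs) and 9 bp (399 pairs), against 251 at 4 bp and 252 at 8 bp. A further excess lay near 64 bp, with 100 pairs at -64 bp and 93 at 64 bp. At -60 bp and 60 bp there were 9 and 8 pairs. The share at exactly 1 bp was somewhat lower among strong pairs. It was 42.7% where the mean percentile of a pair was in the lowest decile of the scale and 34.5% where it was in the highest. The wide offsets changed as well, since the distance that held 90% of the pairs was 64 bp in the lowest decile and 25 bp in the highest.

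**Figure D2:**
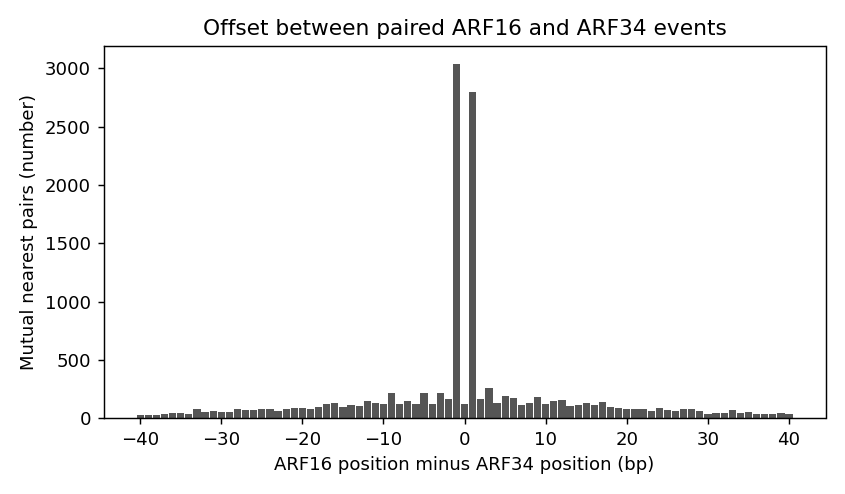
Number of mutual nearest pairs by the ARF16 position minus the ARF34 position in bp, shown to 40 bp on each side. The columns at −1 and 1 bp hold 3040 and 2793 pairs, and the column at 0 holds 119. The remaining pairs within 40 bp spread over a low, roughly symmetric background. A further excess near 64 bp lies outside the range shown.

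The direction of the 1 bp step went with the placement of the other proteins' events at the same sites. ARF4 and ARF18 events fell on the ARF16 base in either case: among ARF4 events within 20 bp of ARF16, 810 of 1201 (67.4%) had an offset of 0 where ARF16 lay above ARF34, and 826 of 1279 (64.6%) where it lay below. ARF27 kept a step of 2 bp against the direction of ARF34. Where ARF16 was 1 bp above ARF34, ARF16 minus ARF27 was -2 bp for 509 ARF27 events (52.2%) and 2 bp for 25. Where ARF16 was 1 bp below, it was 2 bp for 552 (53.3%) and -2 bp for 11. ARF29 kept a step of 4 bp on the same side as ARF34: ARF16 minus ARF29 was 4 bp for 279 of 428 ARF29 events where ARF16 was above ARF34 and -4 bp for 303 of 434 where it was below, with 5 and 4 events at the opposite offset.

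Steps of a fixed size on the side of ARF34 were also seen for clade B proteins. ARF16 minus ARF25 was 6 bp for 125 of 330 ARF25 events where ARF16 was above ARF34, and -6 bp for 135 of 332 where it was below, with 3 and 6 events at the opposite offset. For ARF7 the most frequent offset was 3 bp on that side, at 68 of 244 and 62 of 198 events, and for ARF36 it was also 3 bp, at 60 of 293 and 53 of 284. For ARF10 it was 2 bp, at 60 of 294 and 57 of 289 events. ARF39 had 6 bp on that side at 25 of 137 and 12 of 106 events. For ARF14 the events were few. Where ARF16 was above ARF34, 23 of 179 had 3 bp on that side and 1 had the opposite offset. Where ARF16 was below, no offset held more than 14 of 154 events. Over all mutual pairs with ARF16, whatever the direction, 3 bp was the most frequent distance for ARF14 (15.2%) and ARF7 (10.8%). It was 6 bp for ARF39 (20.3%) and ARF25 (16.3%). For ARF36 it was 3 bp (16.2%), but for ARF10 it was 1 bp (15.7%) and not 2 bp. An event's base is assigned by the caller, and no source used here says which base it takes within a bound site, so a step between proteins and a step between the caller's anchor bases cannot be told apart. Among the 66 pairs of lists, the share of ARF16 and ARF34 events at their most frequent distance ranked number 3, after ARF18 with ARF29 (42.1% at 4 bp) and ARF16 with ARF29 (41.3% at 4 bp).

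Shared places carried more of the other ARFs than places of ARF16 or ARF34 only. Over the other 10 lists, which played no part in the split, an ARF16 only event lay at events of 1.39 lists on average, against 2.26 for a shared ARF16 event. The mean was 0.77 for an ARF34 only event, against 2.25 for a shared ARF34 event. No other ARF was found at 46.6% of the ARF16 only events (43.9% to 49.4%), against 30.6% of the shared ARF16 events (29.9% to 31.3%). The share was 66.9% for the ARF34 only events (66.2% to 67.5%), against 30.5% for the shared ARF34 events (29.8% to 31.2%). Strength moves with both, so the comparison was repeated within deciles of strength. Shared events given the ranks of the events without a partner then had 1.70 other lists for ARF16 and 1.76 for ARF34. The difference, without a partner minus shared, shrank to -0.32 lists for ARF16 and to -0.99 for ARF34, and it was negative in all 10 deciles for ARF34. For ARF16 it was positive in 1 of the 10 deciles, decile 8, where 27 ARF16 only events had a mean of 2.89 lists against 2.47.

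ARF4 and ARF27 were the most frequent companions of shared events. ARF4 had an event at 36.9% of the ARF16 only events (34.2% to 39.6%), against 53.6% of the shared ARF16 events. It was at 19.2% of the ARF34 only events (18.6% to 19.7%), against 53.6% of the shared ARF34 events. ARF27 was at 23.3% of ARF16 only and 44.6% of shared ARF16 events, and at 8.39% of ARF34 only and 44.5% of shared ARF34 events. At shared events ARF29 followed, with 22.8% in the ARF16 list and 22.7% in the ARF34 list. It was at 11.6% of the ARF16 only and 3.56% of the ARF34 only events. There the clade B proteins ARF7, ARF25 and ARF36 were above ARF29 in both lists, though ARF7 and ARF36 only narrowly at ARF16 only events (11.8% each). Their lists are longer, with 20802, 19058 and 22516 events against 5395 for ARF29, so this order does not compare the proteins. ARF25 was at 14.5% of the ARF16 only and 9.74% of the ARF34 only events. The short ARF18 list, 1106 events, had an event at 2.13% of the ARF16 only events and at 0.035% of the ARF34 only events (7 events), against 7.68% and 7.22% of the shared ARF16 and ARF34 events. ARF36 was the clade B protein with the highest share at ARF34 only events, 11.3% against 20.02% of the shared ones. In the ARF16 list it was at 11.8% of ARF16 only and 19.9% of shared events.

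**Figure D3:**
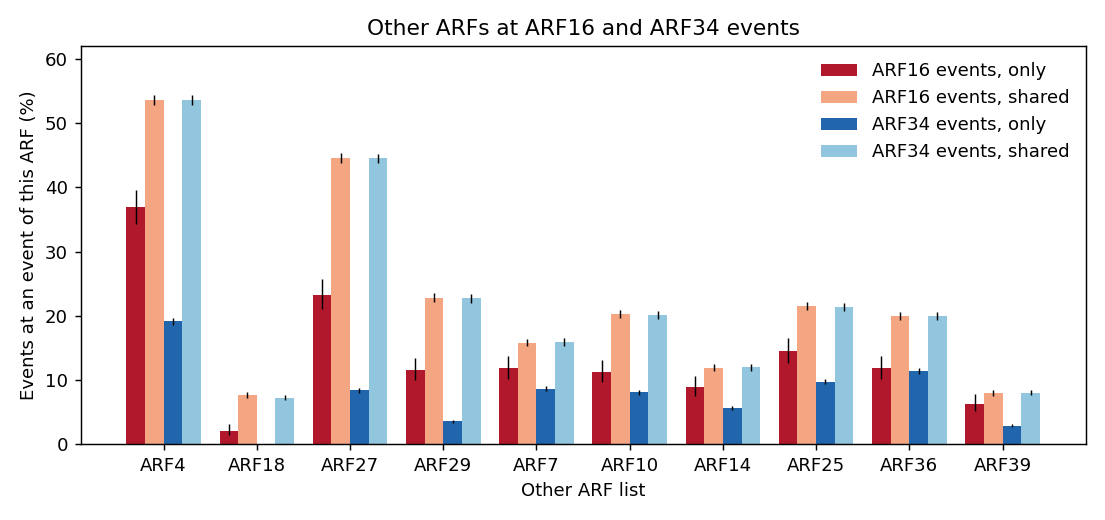
Percentage of events of each class that lie within 100 bp of an event of each other ARF, with Wilson 95% intervals; dark red is ARF16 only, light orange shared ARF16, dark blue ARF34 only and light blue shared ARF34 events. Shares depend on the length of each other list. The dark bar is lower than its light neighbour for every ARF in both lists, and the ARF18 share at ARF34 only events is 0.035%.

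Strong events without a partner differed between the lists. The top decile of the ARF16 list held 13 ARF16 only events, with a mean of 4.31 other lists, against 4.57 for the 1673 shared events of that decile. The top decile of the ARF34 list held 246 ARF34 only events, with a mean of 0.83, against 3.49 for the 3323 shared events. Of those 246 events, 153 (62.2%, 56.0% to 68.0%) had no other ARF within 100 bp, against 16.1% of the shared events of that decile. ARF4 was at 19.5% of them and ARF27 at 17.9%, against 67.9% and 69.1% of the shared events. The 13 ARF16 events are too few for narrow intervals: 2 of them (15.4%, 4.33% to 42.2%) had no other ARF.

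The strongest ARF16 only events lay at places where several other ARFs had an event, with the nearest ARF34 event 5693 to 32106 bp away. The event at 36539566 of chromosome 13 was number 4 of the ARF16 list (strength 2221), its nearest ARF34 event was 9320 bp away, and 6 other ARFs were there. The event at 24234641 of chromosome 7 was number 6 (2039), 32106 bp from the nearest ARF34 event, and all 10 other ARFs had an event there. Those at 39723281 of chromosome 9 (number 27), 16408425 of chromosome 7 (number 133) and 24141538 of chromosome 19 (number 334) had 8, 5 and 2 other ARFs. Over whole lists, 4 ARF16 only events (0.32%) lay at events of all 10 other ARFs, against 263 shared ARF16 events (1.68%). For ARF34 it was 1 ARF34 only event (0.0051%), against 262 shared events (1.65%).

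The strongest ARF34 only events mostly stood alone. Those at 23670899 and 23669730 of chromosome 17 (numbers 144 and 291) and at 47240339 of chromosome 18 (number 149) had no other ARF, and the one at 23685711 of chromosome 17 (number 231) had ARF4. The first of these lay 1169 bp from the second. The event at 32682498 of chromosome 4 (number 304, strength 213.7) was the exception, with events of all 10 other ARFs and its nearest ARF16 event 12252 bp away.

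Close neighbours of the same list were the next feature of the classes. Another event of the same list lay within 500 bp of 24.7% of the ARF16 only events (22.4% to 27.2%), against 20.05% of the shared ARF16 events (19.4% to 20.7%). For ARF34 the order was the opposite, with 10.2% of the ARF34 only events (9.77% to 10.6%) against 26.2% of the shared events (25.5% to 26.9%). The ARF34 difference kept its sign under every alternative tried. It was only -2.86 points when the strongest event of each run of events at most 200 bp apart was kept. The ARF16 difference did not keep its sign: it was -11.8 points with sharing defined at 200 bp and -6.51 points with lists of equal length. Of the 313 ARF16 only events with a neighbour, 277 had a shared event among those next to them, and of the 2016 ARF34 only events 1018 did. Over the whole lists 92.5% of the ARF16 and 44.6% of the ARF34 events were shared. These counts alone therefore set neither the classes nor the lists apart. Within 100 bp the rule itself leaves little room for events without a partner, since a neighbour's partner would usually lie within reach. A neighbour that close was found at 0.47% of the ARF16 only and 6.91% of the shared ARF16 events. For ARF34 it was 1.03% of the ARF34 only and 9.02% of the shared events. The neighbour differences are therefore not independent of the rule, and their sign alone says little.

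The distances between same-list events formed a ladder with rungs at multiples of about 65 bp. Relative to the windows midway above the rungs, it was weakest at 65 bp itself. There the ARF16 list had 155 distances against 70 midway above (2.21 times), and the ARF34 list 253 against 114 (2.22 times). Counting all pairs of events of a list, the ARF16 list had 290 distances within 6 bp of 130 bp, 239 at 195 bp, 218 at 260 bp, 171 at 325 bp, 139 at 390 bp and 105 at 455 bp. In the windows of the same width midway above these rungs, it had 41, 23, 16, 21, 10 and 10. The ARF34 list had 429, 342, 336, 258, 233 and 180 on the rungs, and 78, 65, 57, 35, 33 and 41 midway. On the 6 rungs from 130 bp there were 1162 distances in the ARF16 list, 9.60 times the 121 midway, and 1778 in the ARF34 list, 5.75 times the 309 midway. With the 65 bp rung included, the ratios were 6.90 and 4.80. The period and the width were chosen after the distances had been seen.

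**Figure D4:**
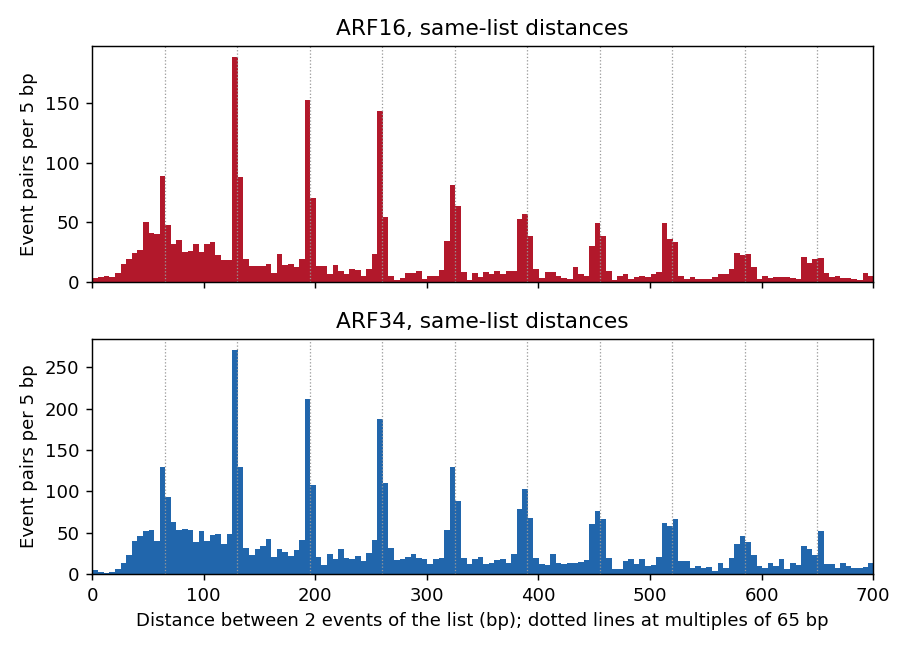
Number of pairs of events of the same list by distance in bp, in steps of 5 bp, for ARF16 (above) and ARF34 (below); dotted lines mark multiples of 65 bp. Sharp columns stand at or close to the dotted lines in both lists, over a low background between them.

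The ladder was also present in 2 other clade A lists and was not seen in clade B lists. By the same counts, the ratio of rungs to midway windows was 10.7 for ARF4 (1023 and 96 distances) and 6.89 for ARF27 (310 and 45), while ARF29 had 1.85 (48 and 26). ARF18 had too few distances to judge (11 and 3). The clade B lists had ratios from 0.67 (ARF36, 111 and 166 distances) to 1.24 (ARF10, 83 and 67). This difference between the clades was not tested.

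Events on the ladder were concentrated in the middle of the chromosomes. With an event placed on the ladder when its nearest same-list event was 52 to 500 bp away and within 6 bp of a multiple of 65 bp, 1753 ARF16 events (10.3%) and 2783 ARF34 events (7.79%) were on it. Between 25% and 75% of the chromosome span covered by events lay 77.1% of the ARF16 ladder events (75.1% to 79.0%), against 46.2% of the ARF16 events with a neighbour off the ladder (43.8% to 48.5%) and 42.7% of those with no neighbour. For ARF34 the shares were 77.1% (75.6% to 78.7%), 47.2% and 43.3%. Ladder events were found on all 20 chromosomes, 43 to 150 per chromosome for ARF16 and 51 to 202 for ARF34.

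Clade B proteins were found less often at ARF16 ladder events than at other ARF16 events, while ARF4 was found more often. ARF4 had an event at 72.6% of the ARF16 ladder events, against 64.7% of the ARF16 events with a neighbour off the ladder and 48.2% of those with no neighbour. ARF36 was at 6.79% of the ladder events, against 26.2% and 20.1%. ARF7 was at 5.19%, against 21.5% and 16.1%, and ARF14 at 4.73%, against 18.4% and 11.8%. At ARF34 ladder events the same companions had 63.0% (ARF4), 7.76% (ARF36), 6.25% (ARF7) and 4.49% (ARF14). ARF10, the most frequent clade B protein at ARF16 ladder events, was at 17.1% of them, against 30.3% of the events with a neighbour off the ladder and 18.5% of those with no neighbour. In the ARF34 list ARF10 was at 14.7% of the ladder events, against 21.9% and 12.3%, and so above its share at events with no neighbour. ARF27 did not follow ARF4: it was at 52.1% of the ARF16 ladder events, against 57.2% and 39.996%. ARF29 was at 21.7%, against 35.3% and 20.4%. ARF16 only events were on the ladder more often than shared ones, 16.3% (14.3% to 18.4%) against 9.86% (9.40% to 10.3%). ARF34 only events were on it less often, 4.27% against 12.2%, and both differences kept their sign in all 10 deciles of strength. The ARF34 difference also kept its sign at each sharing distance tried. The ARF16 difference did not: it was 18.0 points with sharing at 50 bp, -4.91 points with sharing at 200 bp and -0.52 points with lists of equal length. Off the ladder, 8.45% of the ARF16 only events had a neighbour within 500 bp, against 10.2% of the shared ARF16 events.

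The same distances appeared between the lists. Within the limit for sharing, ARF16 minus ARF34 was -64 bp in 100 pairs and 64 bp in 93 pairs, close to the 65 bp rung. Such pairs count as shared. Of the 1267 ARF16 only events, 370 (29.2%) had an ARF34 event over 100 and up to 200 bp away, just beyond the limit for sharing. Of the 19798 ARF34 only events, 724 (3.66%) had an ARF16 event at that distance. These shares depend on the lengths of the lists and do not compare the proteins. The 370 ARF16 only events included 170 at 121 to 140 bp, against 24 at 141 to 160 bp, and 44 at 191 to 200 bp, against 9 at 181 to 190 bp. Of the 460 ARF16 only events within 500 bp of an ARF34 event, 237 were within 6 bp of a multiple of 65 bp and 40 within 6 bp of a point midway. For ARF34 only these were 605 and 135 of 1262 events.

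The longest runs of events at most 500 bp apart showed the spacing directly. On chromosome 8, between 29676967 and 29678464, 8 ARF16 events followed each other at 255, 134, 197, 192, 390, 198 and 131 bp, each within 6 bp of a rung, and 7 of them were shared. On chromosome 5, between 23221814 and 23223346, there were also 8 ARF16 events, with 5 of 7 steps on the ladder. The longest ARF34 run, on chromosome 3 between 28970815 and 28972907, held 12 events, 7 of them shared, with 9 of 11 steps on the ladder. On chromosome 4, between 28920853 and 28922997, there were 9 ARF34 events with 7 of 8 steps on it. All 4 runs lay in the middle of their chromosomes, at 54.9% to 62.8% of the span. Runs of 3 or more events numbered 313 in the ARF16 list and 486 in the ARF34 list.

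Over whole chromosomes the classes were spread alike. Between 90.8% (chromosome 15, 88.7% to 92.6%) and 94.4% (chromosome 19, 92.8% to 95.7%) of the ARF16 events of a chromosome were shared, and between 42.0% (chromosome 20, 39.7% to 44.4%) and 47.3% (chromosome 19, 45.1% to 49.6%) of the ARF34 events. ARF16 only events numbered 45 on chromosome 16 to 82 on chromosome 18, and ARF34 only events 725 and 1256 on the same chromosomes. Density ran from 15.2 to 19.7 ARF16 events and from 33.2 to 40.6 ARF34 events per Mb, lowest on chromosome 15 and highest on chromosome 17 for both. In the middle of the chromosomes lay 49.6% of the ARF16 only events (46.9% to 52.4%), against 46.4% of the shared ARF16 events (45.6% to 47.2%). For ARF34 it was 46.1% of the ARF34 only events (45.4% to 46.8%), against 46.6% of the shared events (45.8% to 47.4%). Neither difference had a stable sign. ARF16 only minus shared was -2.27 points with sharing at 200 bp, and 0.35 points among events off the ladder. ARF34 only minus shared was 1.68 points with sharing at 50 bp, and 2.32 points among events off the ladder.

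**Figure D5:**
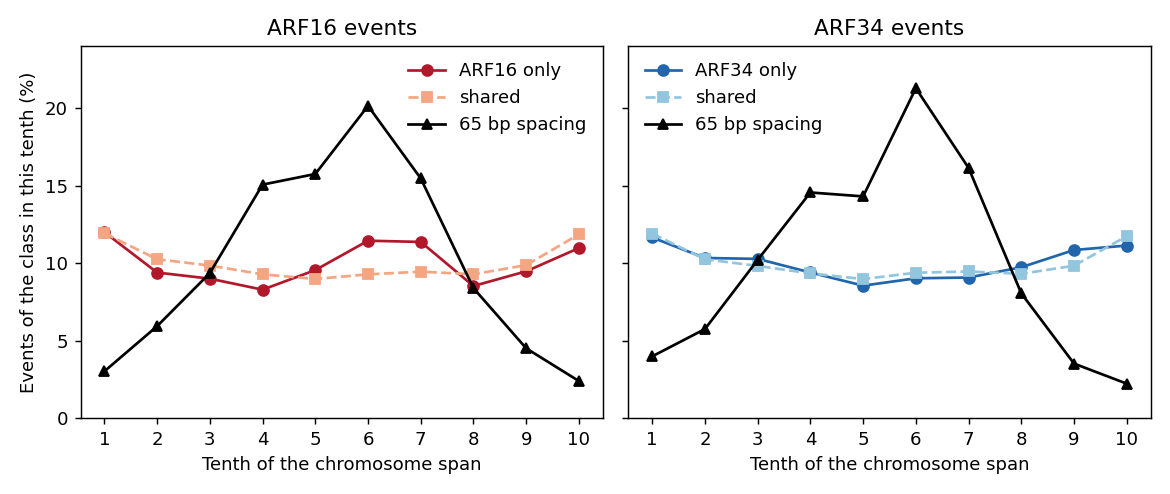
Percentage of each class in each of 10 equal parts of the chromosome span covered by events, over 20 chromosomes, for ARF16 (left) and ARF34 (right); circles are events without a partner, squares shared events and triangles events on the 65 bp ladder of either class. Shared events and those without a partner stay between 8.29% and 12.0% per bin, and the ladder events peak in bin 6, with 20.1% for ARF16 and 21.3% for ARF34.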

How the data were processed

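The authors deposited 1 event list per ARF library. The submitters' processing notes list Bowtie2 and, for trimming, Trimmomatic 0.36. The titles of the deposited lists name GEM, a caller that combines read positions with motif discovery. No source used here gives the build, the caller's settings, the filters or whether the lists share a control. Each list gives windows of 201 bp with the event at offset 100. The deposited signal value, used as strength, has no stated scaling. The authors' −log10 q and −log10 p values are capped at 999. No read totals are given, so depth is unknown.

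Event positions were written 1-based, 1 base above the names in the lists. Strengths were ranked within a list, with ties averaged, and compared between lists only as ranks. Mutual nearest events within 100 bp formed pairs. The middle was 25% to 75% of the span covered by events of all lists on a chromosome. Wilson 95% intervals were computed for shares. No hypothesis was tested, since each ARF has 1 library. The code was tested on simulated data. Named sites were the 3 pairs with the highest mean percentile, the 3 with the largest percentile difference each way, the 5 strongest events without a partner per list, and the 2 runs with most events per list. The members and lists were chosen with earlier results of these data known; the comparisons with other lists' offsets, of the top deciles and of the 65 bp spacing were added after seeing the data. No genome sequence was used here. The software was scipy 1.17.1, numpy 2.4.6, matplotlib 3.10.9 and pandas 2.3.3 under Python 3.11.15.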

Additional observations from a re-analysis of the deposited data

How the results depend on the processing

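Of 94 values under other settings, 9 changed sign, and the cause of each change was not tested. The rank matching, the removal of ladder events, the restriction to strong pairs, the ladder tolerances and the other alternatives for the ladder were chosen after seeing the data. No paired analysis was possible because each ARF has 1 library. Leaving out a replicate was likewise impossible. Differences are given as events without a partner minus shared events.

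With sharing at 50 bp, 83.9% of ARF16 and 39.9% of ARF34 events were shared, 2731 events were ARF16 only, and the median offset was 5 bp, with 41.6% of pairs 1 bp apart. The differences were then -24.1 (ARF16) and -39.6 (ARF34) percentile points, 20.3 and -8.39 points with a neighbour, 9.14 and 1.68 points in the middle, 18.0 and -2.74 points on the ladder, and -1.37 other lists (ARF34). With 200 bp, 94.7% and 46.6% were shared, the median offset was 7 bp, and the differences were -37.5 percentile points (ARF34), -11.8 and -21.2 points with a neighbour, -2.27 and -2.34 points in the middle, -4.91 and -11.3 points on the ladder, and -1.56 other lists (ARF34).

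With each list limited to events whose −log10 q reached its median, 93.4% of ARF16 events were shared, 561 events were ARF16 only and 9991 ARF34 only, and 37.3% of pairs lay 1 bp apart. The differences were -38.1 percentile points, -15.1 points with a neighbour and 1.79 points in the middle (ARF34), 3.53 (ARF16) and -6.22 (ARF34) points on the ladder, and -0.69 (ARF16) and -1.40 (ARF34) other lists. With equal lists, 70.1% and 68.7% were shared, 5077 events were ARF16 only and 5315 ARF34 only, and 37.0% of pairs lay 1 bp apart. The differences were -42.2 and -31.0 percentile points, -6.51 and -10.7 points with a neighbour, -0.52 and -4.82 points on the ladder and -1.69 other lists (ARF34).

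With the nearest ARF34 event of every shared ARF16 event, the median offset was 7 bp and 37.2% lay 1 bp apart. With pairs at or above the 75th percentile these were 5 bp and 35.9%. The neighbour differences were 0.50 and -14.0 points at 250 bp, 13.0 and -2.86 points with the strongest event of each run, 7.63 and -19.9 points within deciles of strength, and -1.22 and -9.76 points off the ladder. Off the ladder the middle differences were 0.35 and 2.32 points. Within deciles of strength the other lists differed by -0.32 and -0.99, and the ARF34 ladder share by -10.4 points. With a tolerance of 4 bp the ARF16 rungs held 14.8 times the midway windows. The lower strength of events without a partner, their fewer other ARFs and the fewer neighbours of ARF34 only events kept their sign under each alternative tried for them. The neighbour difference is not independent of the sharing rule.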
